A study of Mus musculus with 45 samples.

Results

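The genes described here encode factors and kinases of RNA polymerase II elongation: Ccnt1 and Ccnt2, Aff1, Aff4, Ell and Ell2, Cdk12 and Cdk13, and Cdc73. All transcripts of these 9 genes that spanned at least 20000 bases were taken, with transcript identifiers mapped to gene symbols through GENCODE release M21 on the mouse assembly GRCm38. This gave 28 of the 45 transcripts listed for these genes, out of 35031 transcripts of that length and 122968 in all. Each gene is described by its lead transcript, the longest protein-coding transcript of at least 20000 bases, and the other transcripts are given by ranges and counts.

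The data are 4sU-DRB-seq, in which the kinase inhibitor DRB arrests polymerases near promoters and RNA labelled with 4-thiouridine for a short time before harvest is sequenced. Mouse embryonic stem cells (ESCs) of the E14 line, grown in 2i medium, carried 2 wild-type alleles of Polr2a (WT/WT), the R749H substitution on 1 allele (WT/slow) or on both (slow/slow). All had been held in DRB for 4 h according to the labels and methods, or 3 h according to the results of the study, and were harvested 5, 15 or 30 min after its removal in 3 biological replicates, 27 samples in all. The WT/slow line was made by gene targeting of E14 cells and the slow/slow line by targeting the WT/slow line a second time, so line and genotype cannot be told apart. Samples at 0 min and without DRB (18) were not analysed here. The polymerase gene Polr2a encodes the largest subunit of RNA polymerase II, in which R749H is known as a slow-elongation substitution.

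Cyclin T1 and cyclin T2, from Ccnt1 and Ccnt2, pair with CDK9 to form P-TEFb, the kinase that releases paused polymerase into productive elongation and that DRB inhibits. AFF1 and AFF4 are scaffolds of the super elongation complex, which brings P-TEFb together with ELL or ELL2, factors that limit pausing of the polymerase. CDK12 and CDK13 pair with cyclin K and phosphorylate serine 2 of the polymerase tail along gene bodies. CDC73 is a subunit of the PAF1 complex, which travels with elongating polymerase. The genes are thus both part of the elongation machinery and templates on which its progress can be read.

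The measurement was the wave-front boundary, which states in steps of 100 bases how far downstream of the start site new RNA had reached. It is not a read count, the depth of each library is unknown, and the spread of the 3 replicates is the only measure of precision. No expression values were used, so the cell type could not be checked against marker genes. Replicate values are given in the order of replicates 1, 2 and 3. Tests are from limma, run on the 24861 transcripts that had boundaries for each of the 18 samples at 5 and 15 min, with p-values adjusted by the Benjamini-Hochberg method over all of them and a threshold of 0.05. All 9 lead transcripts and 24 of the 28 transcripts entered this fit.

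A single value, 2.5 kb, made up 53.3% of all boundaries in the tables, and its meaning is not given in the sources used here. In the 9 lead transcripts, 1 of 27 WT/WT boundaries was at 2.5 kb after 5 min, 13 after 15 min and 23 after 30 min. The counts in WT/slow cells were 2, 10 and 22 of 27, and in slow/slow cells 0, 4 and 24 of 27. Over the lead transcripts of 9769 genes the share depended on length after 15 min, which was not tested for the 9 genes alone. After 15 min, WT/WT boundaries lay at 2.5 kb in 66.6% ± 5.15 of lead transcripts of 20 to 30 kb and in 30.8% ± 9.83 of those of 100 kb and more (mean ± SD, n = 3). The corresponding shares in slow/slow cells were 68.6% ± 4.40 and 20.5% ± 1.95, and those at 40 to 60 kb were 22.2% ± 5.62 in slow/slow against 51.7% ± 12 in WT/WT cells. After 5 min the means of all length classes and genotypes lay between 13.2% and 24.0%. Boundaries over all transcripts ran from 0.2 to 59.3 kb. What a boundary of 2.5 kb stands for was not tested. It could be a failed call, a lower limit, a front near the start or a wave beyond the transcript or the range called. In the last case a move to 2.5 kb after 15 min would be an advance and not a retreat, and differences against such values could have the opposite sign. Fits without this value are given further on for the genes where they were possible. Groups in which every replicate was at 2.5 kb have no spread, and they lower the SE that all 6 groups share.

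**Figure D1:**
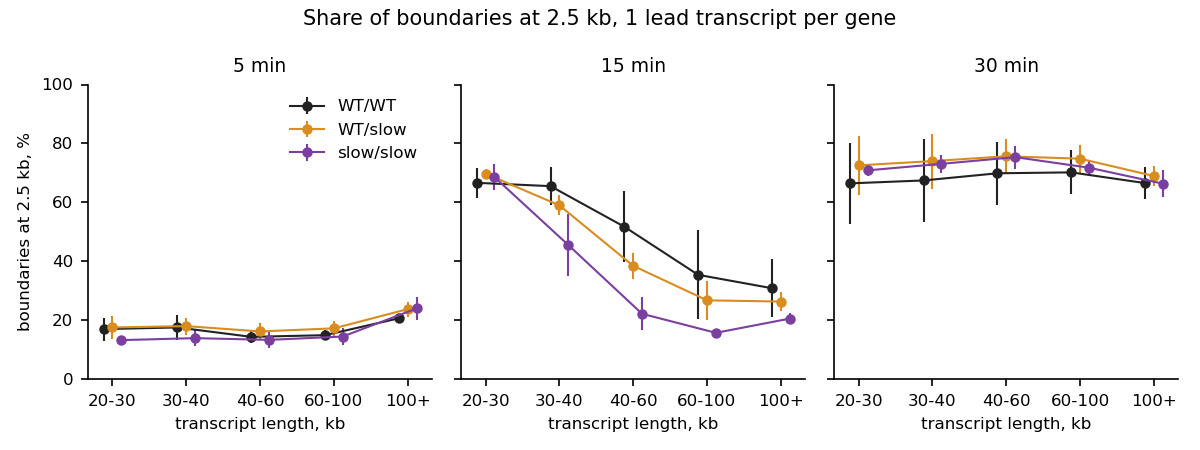
Percentage of wave-front boundaries at exactly 2.5 kb (y axis) against transcript length class (x axis, kb) after 5, 15 and 30 min, for 1 lead transcript per gene in 9769 genes; points are means and bars SDs of 3 replicates. After 15 min the WT/WT share ran from 66.6% in the shortest class to 30.8% in the longest, while after 5 min all means lay between 13.2% and 24.0%.

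The WT/WT library of replicate 2 at 15 min stood apart from the other WT/WT libraries at that time. It was at 2.5 kb in 7 of the 9 lead transcripts, against 3 of 9 in replicates 1 and 3. Over all lead transcripts of at least 60 kb it was at 2.5 kb in 46.3%, against 28% and 23.8%, and its median boundary there was 3.0 kb, against 11.7 and 13.9 kb. For the genes in which it was at 2.5 kb while another WT/WT replicate was far from it, the slow/slow minus WT/WT difference after 15 min is given with and without it.

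Ccnt1 (ENSMUST00000169707) lies on the reverse strand of chromosome 15, from 98538689 to 98570923, and spans 32.2 kb with 10 exons. After 5 min its boundary lay at 5.9, 10.3 and 15.8 kb in WT/WT cells, at 3.5, 19.8 and 17.1 kb in WT/slow cells and at 12.6, 15.7 and 11.7 kb in slow/slow cells. By 15 min WT/WT cells were at 2.5, 3.4 and 2.5 kb, WT/slow cells at 4.1, 5.6 and 2.5 kb and slow/slow cells at 3.5, 4.1 and 2.5 kb. The genotypes overlapped at both times, and within each genotype almost every 15 min value was below every 5 min value, with WT/slow replicate 1 at 5 min the exception. The change from 5 to 15 min was -7.87 kb (SE 3.39) in WT/WT, -9.40 kb in WT/slow and -9.97 kb in slow/slow cells with the same SE, and did not pass in any genotype (limma, adjusted p = 0.189, 0.101 and 0.0803). It passed in all 3 genotypes without WT/slow replicate 1 at 5 min, and in WT/WT and slow/slow cells on the log2 scale.

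Ccnt2 (ENSMUST00000027587), on the forward strand of chromosome 1 from 127774164 to 127808061, spans 33.9 kb with 9 exons. Its 5 min boundaries in WT/WT cells were 10.6, 22.1 and 20 kb, those in WT/slow cells 2.5, 20.7 and 21.1 kb and those in slow/slow cells 13.3, 14.9 and 10.2 kb. At 15 min and at 30 min each of the 9 libraries gave 2.5 kb. The change between 5 and 15 min passed the test in WT/WT cells (-15.1 kb, SE 4.04, adjusted p = 0.0325, limma), with -12.3 kb in WT/slow (adjusted p = 0.0718) and -10.3 kb in slow/slow cells (adjusted p = 0.125). The WT/WT call was lost when any 1 of 5 of the 6 WT/WT libraries was left out, the exception being replicate 1 at 5 min. On the log2 scale, and without WT/slow replicate 1 at 5 min, Ccnt2 passed in all 3 genotypes. With 2.5-kb boundaries left out Ccnt2 could not be fitted, as no 15 min value was left, and Ccnt1 could not be fitted either, as 1 of 3 WT/WT values was left at 15 min.

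**Figure D2:**
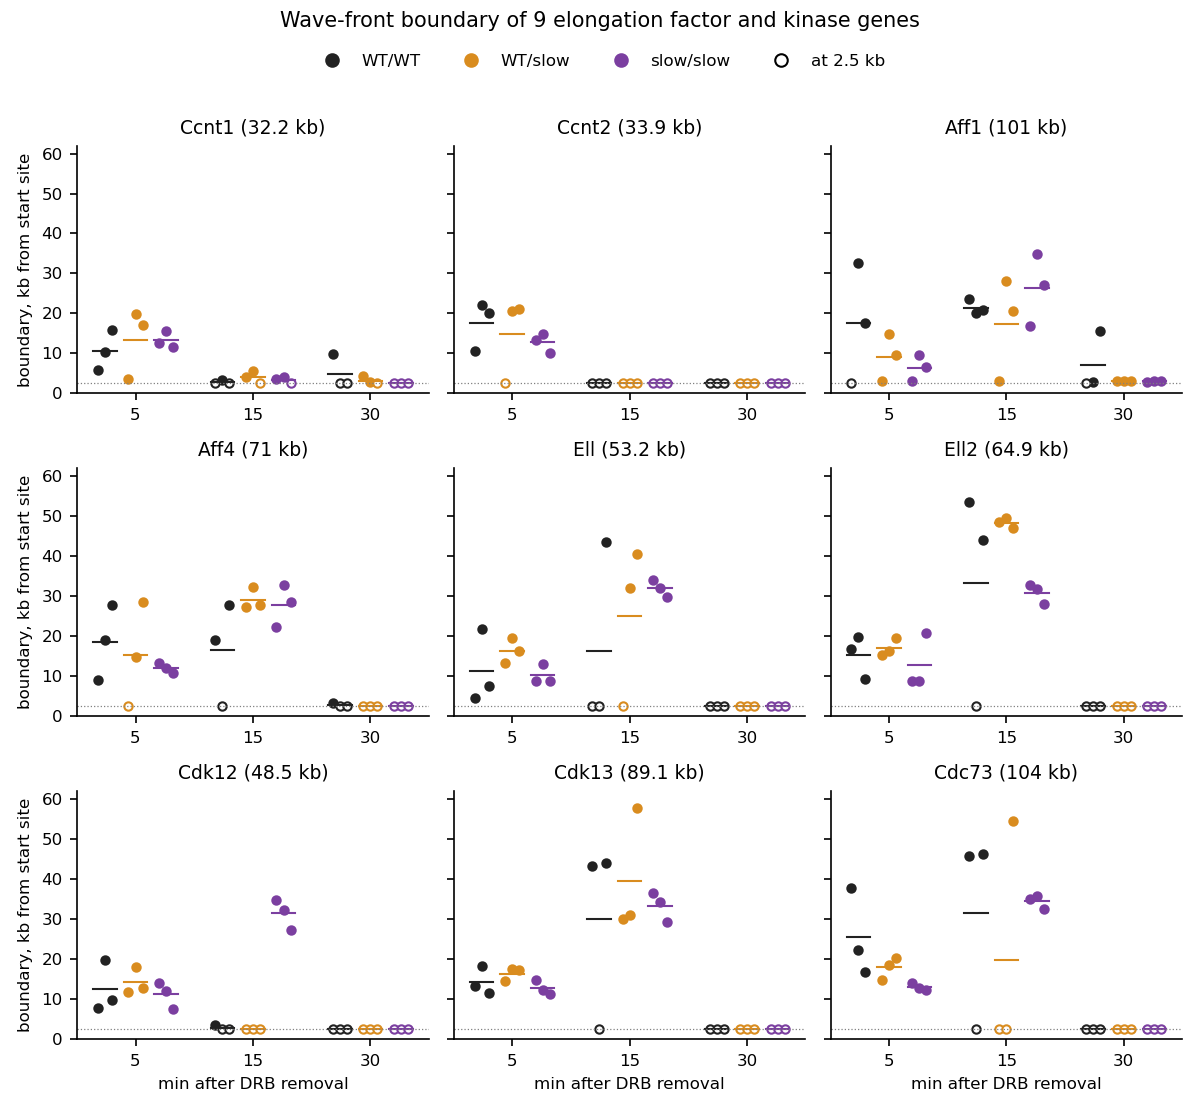
Wave-front boundary in kb from the start site (y axis) after 5, 15 and 30 min (x axis) for the lead transcript of each of the 9 genes, 1 point per replicate with the group mean as a line; open points are boundaries at exactly 2.5 kb (dotted line). In Cdk12 after 15 min the slow/slow replicates lie between 27.2 and 34.9 kb and the WT/WT and WT/slow replicates between 2.5 and 3.6 kb.

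Among the scaffolds of the super elongation complex, Aff1 (ENSMUST00000054979; forward strand of chromosome 5, 103754162 to 103855322) spans 101 kb with 20 exons and has a first intron of 28.8 kb. WT/WT replicates gave 2.5, 32.5 and 17.6 kb after 5 min and 23.5, 20.1 and 20.8 kb after 15 min. WT/slow replicates gave 3.0, 14.9 and 9.6 kb and then 3.1, 28.1 and 20.6 kb. In slow/slow replicates the boundary was 3.0, 9.6 and 6.6 kb after 5 min and 16.8, 34.8 and 27.2 kb after 15 min, so that the 2 times did not overlap, whereas they did in WT/WT and WT/slow cells. The advance was 19.9 kb in slow/slow cells (SE 7.32, 1987 bases/min, adjusted p = 0.104) and 3.93 kb in WT/WT cells (adjusted p = 0.866, limma). Once a block for the replicate number was added, the slow/slow advance passed at the same size (SE 4.90, adjusted p = 0.0266). All WT/WT and 2 of 3 slow/slow boundaries after 15 min were in intron 1.

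Aff4 (ENSMUST00000060945; forward strand of chromosome 11, 53350833 to 53421830) spans 71.0 kb with 21 exons. Its WT/WT boundaries were spread from 9.1 through 19.0 to 27.9 kb after 5 min and were 19.0, 2.5 and 27.9 kb after 15 min. In WT/slow cells they were 2.5, 14.8 and 28.6 kb and then 27.3, 32.3 and 27.8 kb. The slow/slow values were 13.2, 12.1 and 10.8 kb after 5 min, tighter than in the other genotypes, and 22.2, 32.8 and 28.5 kb after 15 min. Only in slow/slow cells did the replicates of both times not overlap, and the advance of 15.8 kb there (SE 6.90) did not pass when all boundaries were used (adjusted p = 0.163, limma). The advance was 13.8 kb in WT/slow (adjusted p = 0.244) and -2.20 kb in WT/WT cells (adjusted p = 0.961). Without WT/WT replicate 2 at 15 min the WT/WT value was 4.78 kb (SE 6.65, adjusted p = 0.772), and the slow/slow minus WT/WT difference after 15 min went from 11.4 to 4.38 kb (adjusted p = 0.438 and 0.892).

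Ell (ENSMUST00000093454; forward strand of chromosome 8, 70539688 to 70592858) spans 53.2 kb, of which the first intron takes 33.0 kb. After 5 min WT/WT replicates lay at 4.6, 21.9 and 7.5 kb, WT/slow replicates at 13.2, 19.5 and 16.3 kb and slow/slow replicates at 8.9, 13.1 and 8.9 kb. After 15 min WT/WT replicates 1 and 2 were at 2.5 kb and replicate 3 at 43.7 kb, and the WT/slow values were 2.5, 32.1 and 40.5 kb. In slow/slow cells the 15 min values were 34.1, 32.1 and 29.8 kb, in intron 2 and, for replicates 2 and 3, near the end of intron 1. Every slow/slow replicate thus fell between the extremes of WT/WT cells. The slow/slow minus WT/WT difference after 15 min was 15.8 kb (SE 10.5, adjusted p = 0.491, limma), and without WT/WT replicate 3, the 1 library away from 2.5 kb, it was 29.5 kb (adjusted p = 0.0496). Without WT/WT replicate 2 it was 8.90 kb (adjusted p = 0.834).

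Ell2 (ENSMUST00000001583; forward strand of chromosome 13, 75707484 to 75772356 in the deposited table) spans 64.9 kb and has 12 exons; the start site in GENCODE M21 is 727 bases from that of the table. In WT/WT cells the boundary lay at 16.9, 19.7 and 9.2 kb after 5 min and at 53.5, 2.5 and 44.0 kb after 15 min. In WT/slow cells it lay at 15.3, 16.3 and 19.5 kb and then at 48.5, 49.6 and 47.1 kb, in introns 4 and 5. In slow/slow cells it lay at 8.9, 8.9 and 20.7 kb and then at 32.9, 31.8 and 28.1 kb, all in intron 2. After 15 min every slow/slow replicate was below every WT/slow replicate and below WT/WT replicates 1 and 3, and the 1 WT/WT value below them was the 2.5 kb of replicate 2.

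The advance of the Ell2 front in WT/slow cells passed the test (31.4 kb, SE 9.20, 3137 bases/min, adjusted p = 0.0432, limma), but the call was lost on the log2 scale, with the replicate number as a block and when any 1 of 15 of the 18 libraries was left out, the exceptions being the 3 WT/WT libraries at 15 min. The advances in WT/WT and slow/slow cells were 18.1 kb each (adjusted p = 0.275 and 0.228). Without WT/WT replicate 2 at 15 min the WT/WT advance was 33.5 kb (SE 3.99, adjusted p = 0.000403) and the slow/slow advance, unchanged in size, passed too (adjusted p = 0.00763). The slow/slow minus WT/WT difference after 15 min was -2.40 kb (SE 9.20, adjusted p = 1) with every library, and -17.8 kb without WT/WT replicate 2 at 15 min (SE 3.99, adjusted p = 0.0213, limma, 2 WT/WT libraries against 3). The slow/slow minus WT/slow difference after 15 min, a comparison added after the values were seen, was -17.5 kb (SE 9.20, adjusted p = 0.473), and without WT/WT replicate 2 at 15 min it passed at the same size (SE 3.57, adjusted p = 0.0156, limma).

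The 100 bases that end at the median 15 min boundary are shown on the strand with the same sense as the RNA. They are given for Ell2 in the WT/slow and slow/slow cells, since these fronts lay apart in the gene. They are also given for Cdk12 in slow/slow cells, which carried the genotype difference given below. The capital letter is the base at the boundary itself, which is resolved to 100 bases. The coordinates are on GRCm38 (assembly release p6). For Ell2 they were chr13:75755885-75755984 in intron 4 for WT/slow and chr13:75739185-75739284 in intron 2 for slow/slow cells, and for Cdk12 chr11:98235160-98235259 in intron 8, all on the forward strand.
Ell2, WT/slow: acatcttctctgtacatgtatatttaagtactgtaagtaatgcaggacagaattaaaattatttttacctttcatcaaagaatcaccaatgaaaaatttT
Ell2, slow/slow: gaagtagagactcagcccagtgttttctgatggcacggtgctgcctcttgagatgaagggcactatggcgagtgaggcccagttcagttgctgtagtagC
Cdk12, slow/slow: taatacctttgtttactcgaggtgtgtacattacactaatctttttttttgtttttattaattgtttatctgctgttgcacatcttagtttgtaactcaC
The shares of G and C were 26.0% and 54.0% in the Ell2 windows and 29.0% in the Cdk12 window. No property of these windows was tested against the positions of the fronts.

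Cdk12 (ENSMUST00000107539; forward strand of chromosome 11, 98203059 to 98251564) spans 48.5 kb with 14 exons. After 5 min the front was at 7.9, 19.8 and 9.9 kb in the WT/WT replicates, at 11.9, 18.1 and 12.8 kb in the WT/slow and at 14.0, 12.1 and 7.5 kb in the slow/slow replicates, and the genotypes overlapped. After 15 min it lay at 3.6, 2.5 and 2.5 kb in WT/WT cells, at 2.5 kb in each WT/slow replicate, and at 34.9, 32.2 and 27.2 kb in slow/slow cells, in introns 9, 8 and 7. No slow/slow replicate overlapped the other genotypes. Expressed as a share of the transcript, the slow/slow fronts had covered 71.9%, 66.4% and 56.1% of Cdk12.

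In slow/slow cells the Cdk12 front advanced by 20.2 kb (SE 2.91, 2023 bases/min, adjusted p = 0.000948, limma). The values for WT/slow and WT/WT cells were -11.8 kb (adjusted p = 0.018) and -9.67 kb (adjusted p = 0.0557). The WT/slow call was lost without WT/slow replicate 2 at 5 min. The WT/WT value passed in 5 alternatives, namely log2 values, the replicate block, at least 2 of 3 boundaries per group, and without WT/WT replicate 1 at 5 min or slow/slow replicate 3 at 15 min. At 15 min the slow/slow minus WT/WT difference was 28.6 kb (SE 2.91, adjusted p = 4.81e-05), and it was between 26.8 and 30.7 kb when each library in turn was left out (28.4 kb, adjusted p = 0.000387, without WT/WT replicate 2 at 15 min). The difference in progress between these genotypes was 29.9 kb (SE 4.11, adjusted p = 0.000954). Against WT/slow cells, a comparison added after the values were seen, slow/slow cells differed by 28.9 kb at 15 min (adjusted p = 6.57e-05) and by 32.0 kb in progress (adjusted p = 0.000822, limma). These differences set slow/slow fronts against WT/WT and WT/slow values of which 5 of 6 were 2.5 kb. Their SE pools SDs after 15 min of 0 kb in WT/slow and 0.635 kb in WT/WT cells, against 3.91 kb in slow/slow cells. With 2.5-kb boundaries left out Cdk12 could not be fitted, and whether the WT/WT front was ahead of or behind the slow/slow front after 15 min was not measured by the remaining WT/WT value of 3.6 kb.

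The paralogous Cdk13 (ENSMUST00000042365; reverse strand of chromosome 13, 17715962 to 17805097 in the deposited table) spans 89.1 kb and has a first intron of 30.5 kb. In WT/WT cells the boundary was 13.2, 18.2 and 11.6 kb after 5 min and 43.2, 2.5 and 44.1 kb after 15 min. WT/slow cells gave 14.5, 17.5 and 17.2 kb and then 30.1, 31.0 and 57.8 kb. For slow/slow cells the values were 14.7, 12.4 and 11.3 kb and then 36.5, 34.2 and 29.3 kb. Apart from the 2.5 kb of WT/WT replicate 2, WT/WT values after 15 min were above every slow/slow value, and the WT/slow values lay on both sides of them.

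The advance of the Cdk13 front was 20.5 kb in slow/slow cells (SE 9.30, 2053 bases/min, adjusted p = 0.178), 23.2 kb in WT/slow cells (adjusted p = 0.14) and 15.6 kb in WT/WT cells (adjusted p = 0.364, limma). Without WT/WT replicate 2 at 15 min all 3 advances passed, at 20.5 kb (adjusted p = 0.0347), 23.2 kb (adjusted p = 0.0166) and 29.3 kb (adjusted p = 0.0114), with the SE in slow/slow and WT/slow cells down from 9.30 to 5.59 kb. The slow/slow minus WT/WT difference after 15 min went from 3.40 kb (SE 9.30) to -10.3 kb (SE 6.25), and neither value passed (adjusted p = 1 and 0.459). With each library left out in turn this difference ran from -10.3 to 10.5 kb. Unlike Cdk12, Cdk13 thus had fronts away from 2.5 kb in 2 WT/WT and 3 WT/slow libraries after 15 min, and the difference between the genes was not tested.

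Cdc73 (ENSMUST00000018337; reverse strand of chromosome 1, 143598800 to 143702893) is the longest of the lead transcripts, 104 kb with 17 exons. WT/WT boundaries were 37.7, 22.4 and 16.9 kb after 5 min and 45.9, 2.5 and 46.4 kb after 15 min, and WT/slow boundaries 14.9, 18.6 and 20.4 kb and then 2.5, 2.5 and 54.5 kb. In slow/slow cells they were 14.1, 12.7 and 12.3 kb and then 35.1, 35.9 and 32.6 kb, in introns 9, 10 and 8. After 5 min every slow/slow replicate was below every replicate of the other genotypes, by a mean of -12.6 kb against WT/WT cells, which did not pass (SE 13.1, adjusted p = 1, limma) and ran from -17.0 to -6.62 kb with single libraries left out, the latter without WT/WT replicate 1. After 15 min the slow/slow values were again below the WT/WT values of replicates 1 and 3.

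The common SE of Cdc73, 13.1 kb, was the largest of the 9 genes and came from 15 min WT/WT and WT/slow groups with SDs of 25.2 and 30 kb, against 1.72 kb in slow/slow cells. With all boundaries none of its advances passed (21.5, 1.87 and 5.93 kb in slow/slow, WT/slow and WT/WT cells, adjusted p = 0.313, 1 and 0.903, limma). Without WT/WT replicate 2 at 15 min the WT/WT advance was 20.5 kb (adjusted p = 0.362), and the slow/slow minus WT/WT difference after 15 min went from 2.93 to -11.6 kb (adjusted p = 1 and 0.744). With each library left out in turn this difference ran from -11.6 to 10.3 kb.

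**Figure D3:**
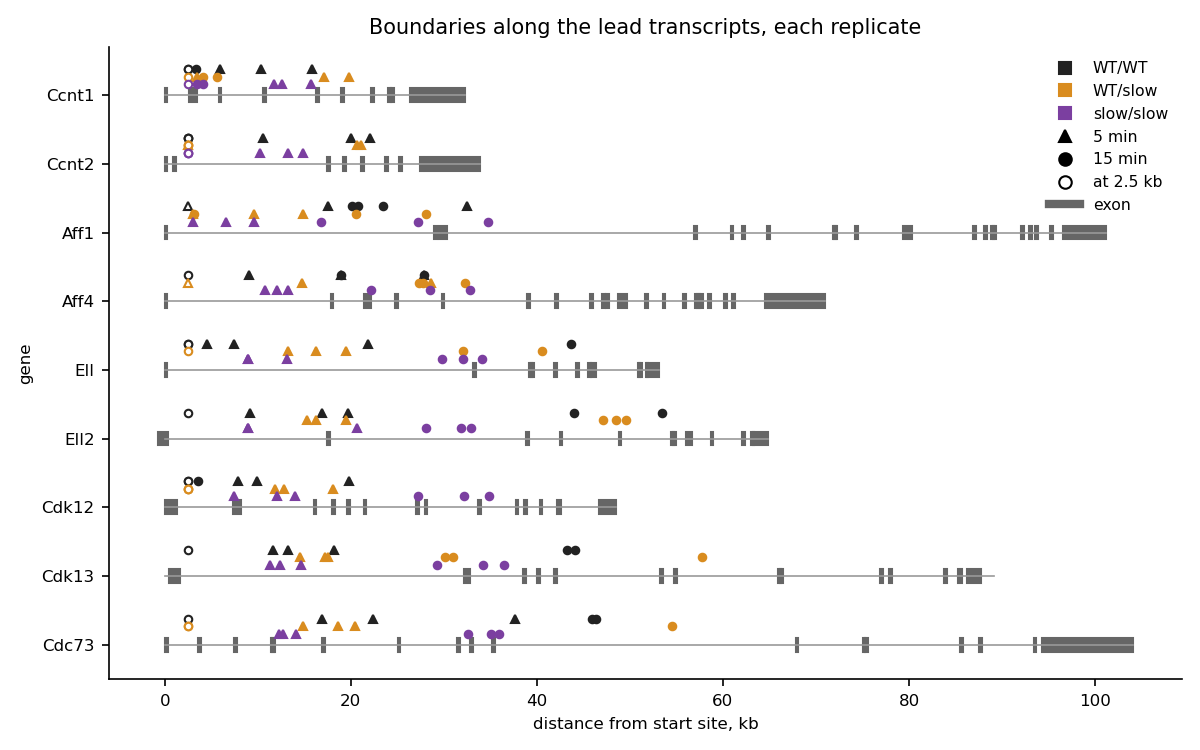
Exons (grey boxes, drawn at least 0.3 kb wide) of the 9 lead transcripts by distance from the start site in kb (x axis), with the boundary of each replicate above them after 5 min (triangles) and 15 min (circles); open symbols are boundaries at exactly 2.5 kb. In Ell2 the slow/slow fronts after 15 min lie between 28.1 and 32.9 kb and the WT/slow fronts between 47.1 and 49.6 kb.

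Across the 9 genes, the mean 5 min boundary of slow/slow cells was below that of WT/WT cells in 8 and below that of WT/slow cells in all 9. None of these differences passed for a lead transcript, and 0 had an unadjusted p under 0.05 (limma). Of all transcripts tested, 0.326% passed at 5 min between slow/slow and WT/WT cells and 0.173% between slow/slow and WT/slow cells. The median difference over the 9 genes was -2.43 kb against WT/WT and -3.27 kb against WT/slow cells, and over the lead transcripts of all genes tested (6327) it was -1.93 and -1.27 kb. These comparisons share the slow/slow samples. Without WT/WT replicate 2 at 5 min the median difference against WT/WT cells over all transcripts tested went from -1.17 to 0 kb. The difference was then above 0 in Cdk12 (2.30 kb), Cdk13 (0.40 kb) and Ell (4.25 kb) as well as in Ccnt1. In the other genes it stayed below 0.

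After 15 min 1 of the 9 genes, Cdk12, differed between slow/slow and WT/WT cells, where 7.06% of all transcripts tested passed. The differences were above 0 in 7 genes, 0 in Ccnt2 and below 0 in Ell2, with a median of 3.40 kb against 1.57 kb over all lead transcripts. With 2.5-kb boundaries left out the median had the opposite sign, -10.3 kb over the 5 genes that could be fitted in WT/WT and slow/slow cells. Of these genes 2 were above and 3 below 0, and the median over all transcripts of that fit was -0.233 kb. In the fit of all genotypes without 2.5-kb boundaries the median was -2.97 kb over 4 genes, 2 above and 2 below 0. Leaving out WT/WT replicate 2 at 15 min, the median of the 9 was 0.867 kb, with 5 above and 3 below 0. In the difference in progress between these genotypes 1 gene passed as well, Cdk12, with 3.08% of all transcripts. Its median over the 9 genes was 15.6 kb, or 4.77 kb without that WT/WT library, and over all lead transcripts it was 4.20 kb with every library. With 2.5-kb boundaries left out in WT/WT and slow/slow cells it was 1.02 kb over 5 genes, 3 above and 2 below 0. Over all transcripts of that fit it was 1.65 kb.

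Within genotypes, the advance from 5 to 15 min passed in 1 gene in WT/WT cells (Ccnt2, negative), in 2 in WT/slow cells (Ell2, positive, and Cdk12, negative) and in 1 in slow/slow cells (Cdk12, positive). The shares of all transcripts that passed were 9.38%, 11.4% and 10.3%. The median advance over the 9 genes was 3.93 kb in WT/WT, 8.10 kb in WT/slow and 19.9 kb in slow/slow cells, and over all lead transcripts it was -1.13, 0.633 and 5.50 kb. With 2.5-kb boundaries left out the medians over the 5 genes fitted were 20.5 kb in WT/WT and 19.9 kb in slow/slow cells. Over all transcripts of that fit a gap was present, with medians of 6.33 and 12 kb. Over all transcripts of the main fit they were -0.2 and 2.17 kb.

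WT/slow and WT/WT cells differed in none of the 9 genes at 5 min, at 15 min or in progress, and 0 had an unadjusted p under 0.05 in any of these comparisons (limma). Among all transcripts 0.161%, 2.31% and 0.567% passed. Between slow/slow and WT/slow cells Cdk12 was the 1 gene to pass at 15 min and in progress, beside 3.14% and 1.42% of all transcripts. A difference that misses the threshold does not show equal fronts, as the SE of a difference between 2 groups was between 2.91 kb in Cdk12 and 13.1 kb in Cdc73.

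With boundaries at 2.5 kb left out, in a fit of the WT/WT and slow/slow samples added after the values were seen, 5 of the 9 genes kept at least 2 of 3 boundaries in each group: Aff1, Aff4, Ell2, Cdk13 and Cdc73. The front advanced in slow/slow cells in all 5, between 15.8 kb in Aff4 (adjusted p = 0.0454) and 21.5 kb in Cdc73 (adjusted p = 0.0107, limma), where 24.5% of the 10743 transcripts fitted passed. In WT/WT cells 3 of the 5 passed, Ell2 (33.5 kb, adjusted p = 0.0014), Cdk13 (29.3 kb, adjusted p = 0.000288) and Cdc73 (20.5 kb, adjusted p = 0.0215), where 19.9% of all passed. In these 3 the slow/slow rates were 1810, 2053 and 2150 bases/min, and the WT/WT rates 3348, 2932 and 2048 bases/min. In Aff1 and Aff4, where the WT/WT advance did not pass (adjusted p = 0.742 and 0.637), the slow/slow rates were 1987 and 1580 and the WT/WT values -358 and 478 bases/min. For Aff1 this fit kept the 3.0 kb of slow/slow replicate 1 at 5 min, a value also given by each WT/slow replicate at 30 min. Whether 3.0 kb marks a front in Aff1 was not tested.

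In the same fit the slow/slow front after 15 min was behind the WT/WT front in Ell2 (-17.8 kb, SE 4.90, adjusted p = 0.0483), the 1 of 5 genes that passed, where 11.3% of all transcripts did. The differences in Cdk13 (-10.3 kb, SE 3.14, adjusted p = 0.0693) and Cdc73 (-11.6 kb, SE 5.18, adjusted p = 0.208) did not pass, nor did those above 0 in Aff1 (4.80 kb, adjusted p = 0.649) and Aff4 (4.38 kb, adjusted p = 0.711). In Ell2, Cdk13, Cdc73 and Aff4 the value removed at 15 min was that of WT/WT replicate 2, which left 2 WT/WT libraries. For these genes the differences repeat those given above without that library and are not separate from them. After 5 min slow/slow means were lower in all 5 genes, with a median of -6.63 kb. None passed there (2 had an unadjusted p under 0.05, and 0.0931% of all transcripts passed), nor in the difference in progress (2 with an unadjusted p under 0.05, and 3.11% of all passed, limma). The difference in progress was -15.4 kb in Ell2 (SE 6.57, adjusted p = 0.321) and 23.5 kb in Aff1 (SE 7.66, adjusted p = 0.167), so the genes did not share a direction.

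With 2.5-kb boundaries left out in all 3 genotypes, 4 of these genes could be fitted, without Cdc73. In WT/slow cells the advance passed in Ell2 (31.4 kb, SE 3.93, adjusted p = 0.000126) and Cdk13 (23.2 kb, SE 5.66, adjusted p = 0.00957), and did not in Aff1 (8.10 kb, adjusted p = 0.362) and Aff4 (7.43 kb, adjusted p = 0.356), where 2090 of the 8342 transcripts fitted passed (limma). The slow/slow minus WT/slow difference after 15 min passed in Ell2 (-17.5 kb, SE 3.93, adjusted p = 0.0334) and in none of the other 3 (9 kb in Aff1, -1.30 kb in Aff4 and -6.30 kb in Cdk13), where 199 of all passed.

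**Figure D4:**
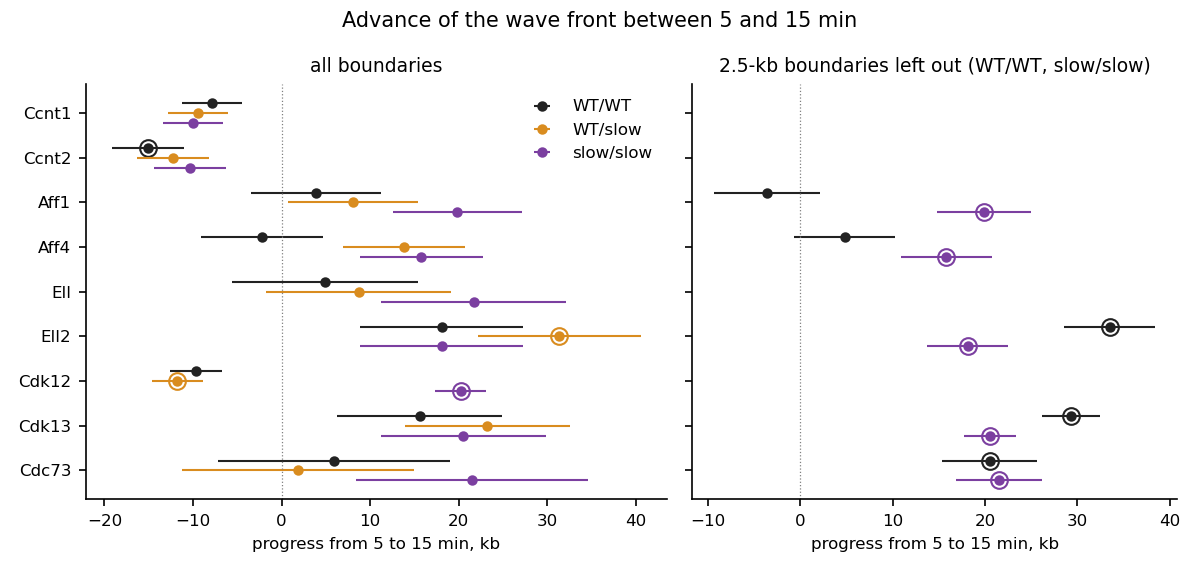
Change of the boundary from 5 to 15 min in kb (x axis) for each gene (y axis) as the limma estimate with its SE, with all boundaries in 3 genotypes (left) and with 2.5-kb boundaries left out in WT/WT and slow/slow cells for the 5 genes that could be fitted (right); rings mark an adjusted p under 0.05. Cdk12 is at 20.2 kb in slow/slow and -11.8 kb in WT/slow cells on the left and absent on the right.

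After 30 min, 69 of the 81 boundaries of the lead transcripts were at 2.5 kb. The others came from Aff1, Aff4 and Ccnt1. Aff1 gave 2.5, 2.9 and 15.6 kb in WT/WT, 3.0 kb in each WT/slow replicate and 2.9, 3.0 and 3.0 kb in slow/slow cells. For Ccnt1 they were WT/WT replicate 1 (9.8 kb) and WT/slow replicates 1 and 2 (4.3 and 2.8 kb), and for Aff4 WT/WT replicate 1 (3.4 kb). No lead boundary after 30 min was beyond 15.6 kb, and these values were not tested.

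The 19 other transcripts of at least 20000 bases came from 7 of the genes, and many share a start site with the lead transcript, so they are not independent. Their boundaries did not always match. Among 10 transcripts of 5 genes that start within 500 bases of the lead transcript, 67 of 262 paired boundaries of the same library (25.6%) differed by more than 1 kb, with gaps of up to 43.9 kb in Cdc73. The largest gap in Cdk12 was 15.3 kb, in ENSMUST00000107538, which starts 276 bases from the lead transcript. A called boundary thus depended on the transcript model as well as on the library.

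Among those other transcripts, both other protein-coding transcripts of Cdk12 passed as well. ENSMUST00000107538 differed between slow/slow and WT/WT cells by 28.1 kb after 15 min (SE 4.09, adjusted p = 0.000758, limma) and ENSMUST00000003203 by 27.6 kb (SE 4.24, adjusted p = 0.00112). A shorter Aff4 transcript, ENSMUST00000152616, of 25.4 kb with a start site inside the longer model, differed by 4.67 kb (SE 1.16, adjusted p = 0.0261). Of the 24 transcripts tested 4 passed in this comparison, 3 of them overlapping models of Cdk12, beside 7.06% of all transcripts. In Ccnt2 the 4 other transcripts had each of their 36 boundaries at 15 min at 2.5 kb, and in Ccnt1 the 3 others had 26 of 27, with 2.7 kb as the exception.

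Of 144 lead boundaries away from 2.5 kb, 137 lay in an intron and 7 in an exon, and 60 were in intron 1. The first 20 kb of the 9 lead transcripts had a median G and C share of 40.6%, against 43.7% over the lead transcripts of all genes. Ell was highest with 49.7%, above 88.3% of all lead transcripts, and Cdc73 lowest with 39.0%. Cdk12 was at 40.3% and Cdk13 at 40.6%, and base composition was not tested against the boundaries.

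A list of 67 further genes of the elongation machinery held 45 with a lead transcript, of which 38 could be tested. After 15 min 4 of the 38 differed between slow/slow and WT/WT cells, all higher in slow/slow cells, with a median difference of 4.90 kb over the 38. Of all transcripts tested 7.06% passed in this comparison, 1423 higher and 332 lower, and with 2.5-kb boundaries left out 619 were higher and 598 lower. They were Mnat1, an assembly factor of the CDK7 kinase (31.0 kb, SE 3.59, adjusted p = 0.000132), Scaf4, which binds the polymerase tail (30.3 kb, adjusted p = 0.000391), Mllt1, a YEATS-domain subunit of the super elongation complex (26.8 kb, adjusted p = 0.0176), and Ice2 of the little elongation complex (22.8 kb, adjusted p = 0.0269, limma). Mnat1 was at 2.5, 2.5 and 2.6 kb in WT/WT and at 32.7, 34.4 and 33.5 kb in slow/slow cells. Scaf4 was at 2.5 kb in each WT/WT replicate and at 36.6, 35.7 and 26.0 kb in slow/slow cells, the layout seen in Cdk12.

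In progress Scaf4 (34.7 kb) and Mnat1 (30.9 kb) passed and 0 of the 38 were lower (adjusted p = 0.00373 and 0.00368, limma), beside 3.08% of all transcripts, 709 higher and 57 lower (271 and 63 with 2.5-kb boundaries left out). At 5 min 0 of the 38 passed between slow/slow and WT/WT cells, with 2 at an unadjusted p under 0.05 and a median of -2.62 kb. Within slow/slow cells the advance was called in 7 of the 38, beside 10.3% of all transcripts. Among the 7 it was positive in 3, with Mnat1 (21.5 kb) and Scaf4 (19.6 kb) among them, and negative in 4, led by Supt5 (-12.5 kb), which encodes the pausing and elongation factor SPT5 and spans 23.8 kb. Supt5 was at 2.5 kb in all 9 libraries after 15 min, like Ccnt2.

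**Figure D5:**
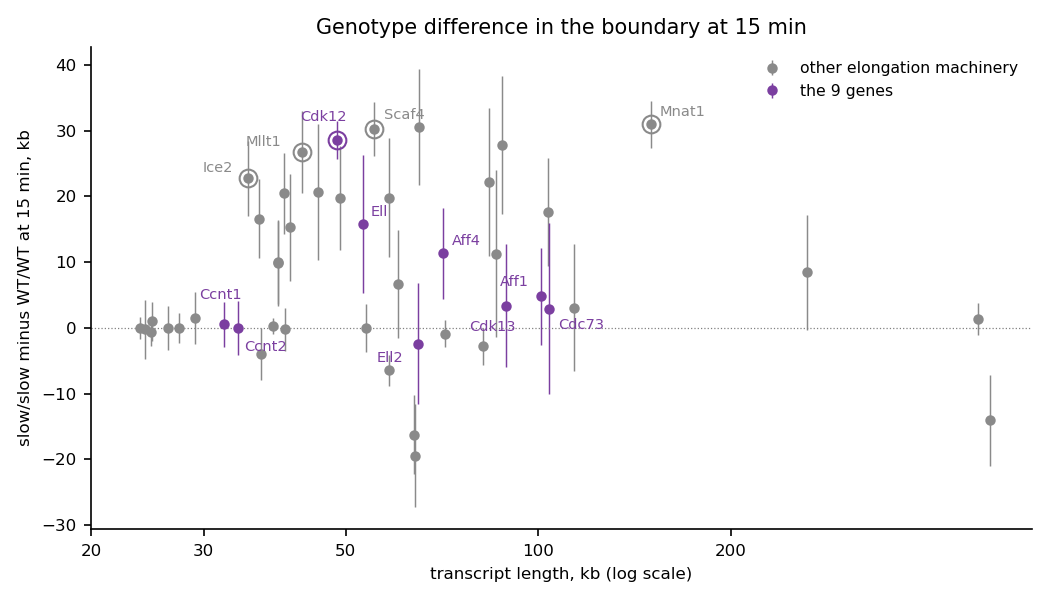
Slow/slow minus WT/WT difference in the boundary after 15 min in kb (y axis; limma estimate with its SE) against transcript length in kb (x axis, log scale) for the 9 genes and for 38 other genes of the elongation machinery; rings mark an adjusted p under 0.05. Cdk12 (28.6 kb) lies near Scaf4 (30.3 kb) and Mllt1 (26.8 kb), and Ccnt1 and Ccnt2 lie at 0.567 and 0 kb.

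The mean boundary of the 9 lead transcripts over the 18 samples ran from 4.56 kb in WT/WT replicate 2 at 15 min to 28.4 kb in WT/slow replicate 3 at 15 min. Among 6288 other genes, the 5 with the most similar boundaries over these samples were Nsun6 (Pearson's r = 0.932), Cfdp1 (0.913), Mttp (0.911), Cenpe (0.910) and Dennd5a (0.896), with transcripts of 52.3 to 85.8 kb. These correlations describe 18 samples of 6 groups that share libraries with the 9 genes.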

How the data were processed

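Genotype, time and replicate number were taken from the sample labels. The deposited values are distances in bases (unit: other, not counts) that the authors derived from 4sU-labelled RNA. Reads were aligned to mm10 (GRCm38) with Bowtie2 2.2.9 per the labels, unique reads outside rRNA were kept and binned, and published software located the end of the wave. Table names state that each sample was set against the 0 min average. Each table has 1 boundary or none for 122968 transcripts, from 41989 to 55046 boundaries per sample. Depth is unknown, so precision rests on 3 replicates. No tables were identical.

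By identifier, 122200 transcripts were found in GENCODE M21, 117309 with the same start and end. The genome sequence was GRCm38.p6. Boundaries in kb on a linear scale were fitted with limma 3.58.1 (R 4.3.3) as 1 mean for each of 6 groups (3 genotypes at 5 and 15 min), without a replicate block, and checked on simulated data. Python 3.11.15, NumPy 2.4.6, pandas 2.3.3, pysam 0.24.0 and Matplotlib 3.10.9 were used otherwise. Rates are the change in bases divided by the time between harvests. The 30 min values were described only.

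The genes named are the 9 members by their lead transcripts and, from a wider list of 67 genes, at most the 4 with the largest change among those that passed in a comparison, together with the 5 genes most similar by Pearson's r. Scaf4 and Mnat1 in progress, and single transcripts other than the lead, were named because they passed. The members and lists were chosen with earlier results of these data known. Alternatives were 2.5-kb boundaries left out, at least 2 of 3 boundaries per group, log2 values, the replicate block, 1 lead transcript per gene, and each sample left out.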

Additional observations from a re-analysis of the deposited data

Results flagged for a closer look

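The advance of the Cdk12 front from 5 to 15 min differed between genotypes by a test of the difference itself (limma interaction). For slow/slow cells it exceeded that of WT/WT cells by 29.9 kb and that of WT/slow cells by 32.0 kb, the latter in a comparison added after the values were seen. The sign of the advance was opposite, positive in slow/slow and negative in the other genotypes, where 5 of 6 boundaries after 15 min were at 2.5 kb. If 2.5 kb marks a wave that had left the transcript, the sign of the difference could be the opposite. The part that the 2.5-kb value has in this difference was not tested, because no fit was possible without it.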

How the results depend on the processing

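Values are counts of the 9 genes that passed. The advance in WT/WT cells passed in 1 gene in the main setting and in 3 on the log2 scale. It passed in 2 with 2.5-kb boundaries left out (4 genes fitted) and in 2 with at least 2 of 3 boundaries per group. Of all transcripts tested, 2333 of 24861 passed in the main setting and 3535 of 24861 on the log2 scale. With 2.5-kb boundaries left out 1725 of 8342 passed, and with at least 2 of 3 boundaries per group 4075 of 37395. For WT/slow cells the log2 count was 2 genes, as in the main setting, with Ccnt2 in place of Ell2. Of all transcripts 2831 passed there in the main setting and 3285 on the log2 scale. The advance in slow/slow cells passed in 1 gene in the main setting, in 4 with 2.5-kb boundaries left out and in 3 on the log2 scale. Over all transcripts 2568 of 24861, 2095 of 8342 and 3116 of 24861 passed in these settings. In the added fit of WT/WT and slow/slow samples without 2.5-kb boundaries the advance passed in 3 genes in WT/WT and 5 in slow/slow cells. Of the 10743 transcripts of that fit, 2135 and 2632 passed. The differences in progress of slow/slow against WT/WT and against WT/slow cells, 1 each, were 0 with 2.5-kb boundaries left out, as Cdk12 could not be fitted. Of the 8342 transcripts fitted in all genotypes, 127 and 1 passed. The cause of the other shifts was not tested.

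Leaving out single libraries, the counts ranged from 0 to 2 for the advance in WT/WT, 0 to 3 in WT/slow and 1 to 3 in slow/slow cells, and from 1 to 2 for slow/slow against WT/WT and against WT/slow at 15 min. Of the 24861 transcripts, 1696 to 2697, 2054 to 3117 and 1398 to 2949 passed for these advances. For the differences at 15 min 1364 to 2238 and 670 to 1100 passed. The Cdk12 difference at 15 min (26.8 to 30.7 kb) and in progress (26.3 to 32.2 kb) passed each time, with adjusted p up to 0.000395 and 0.00376. For Ell2 at 15 min the slow/slow minus WT/WT difference ran from -17.8 kb (without WT/WT replicate 2) to 7.68 kb (without WT/WT replicate 1).

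Once a block for the replicate number was added, the counts were 2 (WT/WT, Ccnt2 and Cdk12), 1 (WT/slow, Cdk12) and 2 (slow/slow, Aff1 and Cdk12) for the advance, and it changed no count between genotypes. Same-numbered deviations correlated with r from -0.00507 to 0.343 over 6327 transcripts, above 0.1 in 22 of 45 pairs of samples, and matched their own number best in 81 of 90 comparisons, where 30 would by chance. These comparisons share samples and were not tested. Nothing in the labels or methods pairs the samples.

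Of the differences of single genes between slow/slow and WT/WT cells, 4 (1 in Ell and 3 in Ell2) became called under an alternative. Those called in the main setting were of Cdk12, and their sign did not change where they could be fitted. Each of those fits kept WT/WT values at 2.5 kb, so they cannot show whether the sign depends on that value. Groups of 3 replicates, 2.5-kb boundaries without a stated meaning and boundaries that depend on the transcript model limit what these genes can show, and read depth could not be weighed.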
